A study of Schizosaccharomyces pombe with 14 samples.

Results

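RNA-seq libraries of 2 fission yeast (Schizosaccharomyces pombe) strains, of the 14 libraries in the series, were compared. These were the library labelled Pnmt81-dis3 and the wild-type (WT) library with the same thiamine treatment. Both were chosen by their sample labels. The series as a whole addresses how the RNase III enzyme Pac1 cleaves nascent transcripts. Dis3 is the catalytic nuclease of the RNA exosome and degrades RNA from its 3′ end. In the strain labelled Pnmt81-dis3 (p81nmt1::kanMX6-dis3) the thiamine-repressible nmt81 promoter drives dis3, and its mating type and ade6 allele are written as h? and ade6? in the labels. The WT strain is h+ with ade6-M216. Both strains share leu1-32, ura4-D18 and also his3-D1. Values are also given from the libraries labelled Pnmt81-dhp1 Pnmt81-dis3 (both promoters replaced, h?) and Pnmt81-dhp1 (h-, ade6-M210), which were grown in the same way and share the WT library as their reference. All 4 cultures grew in minimal medium with 60 µM thiamine, and the protocol gives a repression of 12 to 15 h. Each strain has 1 library, so the spread between cultures was not measured and no p-value is given. The library labelled Pnmt81-dis3 held 9470347 fragments counted on genes and the WT library 6836270.

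The exosome is a barrel-shaped complex that degrades RNA in the 3′ to 5′ direction. In the nucleus it trims the precursors of ribosomal, small nuclear and small nucleolar RNAs, and it degrades cryptic non-coding transcripts. In fission yeast it also removes meiotic mRNAs from growing cells, which the RNA-binding protein Mmi1 marks by a repeated short sequence, UNAAAC. Rrp6 is the second nuclease of the nuclear complex. The TRAMP and MTREC complexes deliver substrates to it.

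The targeted gene was examined first. The dis3 gene (SPBC26H8.10, chromosome II, positions 3970898 to 3974218 on the + strand, ASM294v2) had 1453 counts in the library labelled Pnmt81-dis3, against 1382 counts in WT. After scaling to the fragments counted in each library by the trimmed mean of M-values (TMM), these were 156 CPM in the library labelled Pnmt81-dis3 and 198 CPM in WT, where CPM gives counts relative to library size. The log2 ratio of dis3 was -0.35, with a 95% counting interval of -0.45 to -0.24. The interval is that of Clopper and Pearson and covers counting error only, since PCR fragments are not independent molecules. By library total, dis3 stood at 153 CPM in the library labelled Pnmt81-dis3, 222 CPM in the one labelled Pnmt81-dhp1 Pnmt81-dis3, 142 CPM in the one labelled Pnmt81-dhp1, which keeps the native dis3 promoter, and 202 CPM in WT. A low dis3 transcript, as the label implies, was therefore not seen in the counts. All directions below are those of the library that bears this label, and how far the Dis3 protein was depleted was not measured.

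Other genes also differed between the strains. The nmt1 gene, whose promoter family drives the construct, had 263 counts in the library labelled Pnmt81-dis3 and 10 counts in WT. Both lay far under the 5670 CPM and 5660 CPM of the CTL libraries of the series, whose labels name no thiamine. The ID SPMTR.01, on the contig MTR of the table, had 0 counts in the library labelled Pnmt81-dis3 and 998 counts in WT. It had 0 counts in every library labelled h- and at least 234 counts in every library labelled h+. Of the P cell genes, map2, which encodes the P-factor pheromone, had 725 counts against 113 counts in WT, while sxa1 had 249 counts against 622 counts in WT. map3 had 90 counts against 136 counts in WT, and map4 522 counts against 694 counts in WT. Of the M cell genes, sxa2 had 482 counts against 131 counts in WT and mam2 35 counts against 14 counts in WT. mam1 had 318 counts against 427 counts in WT, and the M-factor genes mfm1, mfm2 and mfm3 had 9 counts or fewer in both libraries. By the ratios defined below, the median log2 ratio was -0.92 over 4 P cell genes and 0.35 over 4 M cell genes. Neither list thus went in 1 direction. The leu1 marker had 864 counts in the library labelled Pnmt81-dis3 and 1607 counts in WT, and ura4 had 0 counts in both. With 1 library of each strain, differences of strain background and of dis3 cannot be told apart.

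Of the 7049 genes in the table, 6120 had at least 20 counts over both libraries and were compared. A gene was called past 2-fold when its log2 ratio of TMM-scaled counts plus 0.5 was above 1 or below -1. By this rule 1458 genes were higher in the library labelled Pnmt81-dis3, which is 23.8% of those compared, and 1229 genes were lower, which is 20.1%. The interval lay wholly past 2-fold for 1129 of the higher and 875 of the lower genes. The median log2 ratio over all genes was -0.03. For comparison, 33 genes (0.534%) passed 2-fold between the 2 CTL cultures of the anchor-away experiment and 21 genes (0.33%) between its 2 Pac1-AA cultures, which were sequenced more deeply.

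The gene classes of RefSeq differed in direction. Among protein-coding genes 677 of 4969 were higher and 1181 lower, with a median of -0.24. Among long non-coding RNA (lncRNA) genes 690 of 1021 were higher (67.6%) and 42 lower, with a median of 1.71. Of the small nucleolar RNA (snoRNA) genes, 31 of 67 reached the minimum of 20 counts, and 28 of these were higher. Of the 31, 24 had under 20 counts in WT, so that they were compared only because of their counts in the library labelled Pnmt81-dis3, and the share higher says little about the class. The same holds for 4 of the 5 compared small nuclear RNA (snRNA) genes, which were the 4 higher ones, and for all 19 compared tRNA genes, of which 18 were higher. Of the 7 snoRNA genes with at least 20 counts in WT, 6 were higher and 0 lower. Such libraries keep short RNAs poorly, and snRNA genes took only 0.0482% of the counts in the library labelled Pnmt81-dis3 and 0.000731% in WT. The share of counts on lncRNA genes was 4.27% in the library labelled Pnmt81-dis3, 6.18% in Pnmt81-dhp1 Pnmt81-dis3, 2.67% in Pnmt81-dhp1 and 1.24% in WT. Protein-coding genes took 93.2% of the counts in the library labelled Pnmt81-dis3 and 96.3% in WT.

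**Figure D1:**
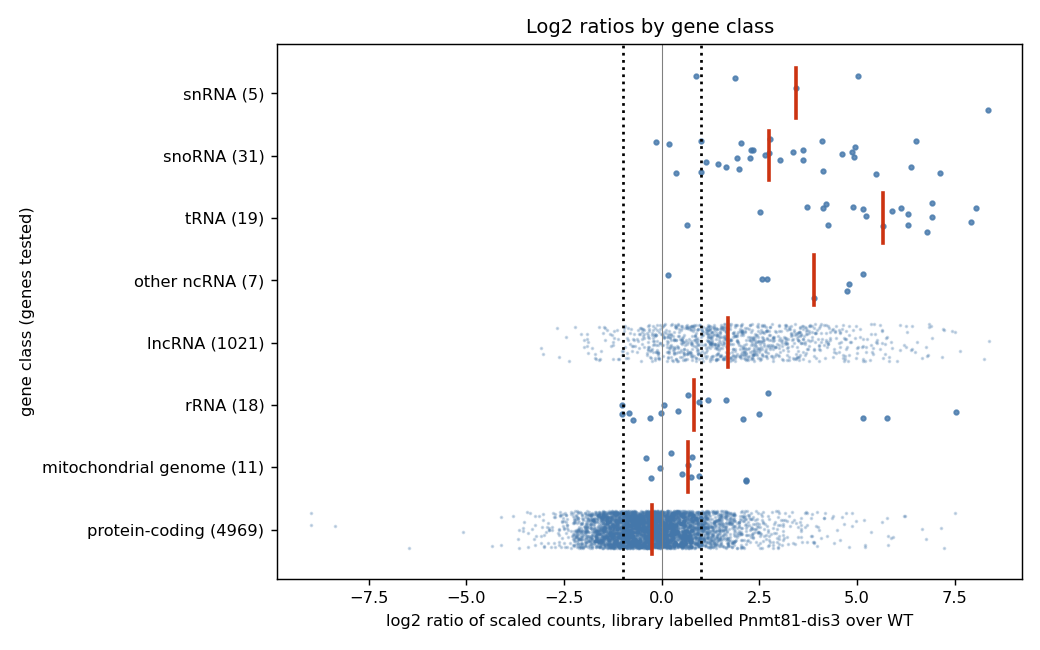
Log2 ratio of each gene compared, by gene class, in the library labelled Pnmt81-dis3 over WT. Each dot is a gene, red bars mark the class medians and dotted lines mark 2-fold. The lncRNA median lies at 1.71 and the protein-coding median at -0.24.

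The scaling bears on the protein-coding split. With TMM factors from protein-coding genes alone every log2 ratio shifted up by 0.23, and 883 protein-coding genes were then higher and 856 lower, against 677 and 1181 as reported. All further directions are relative to the scaling over all genes.

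**Figure D2:**
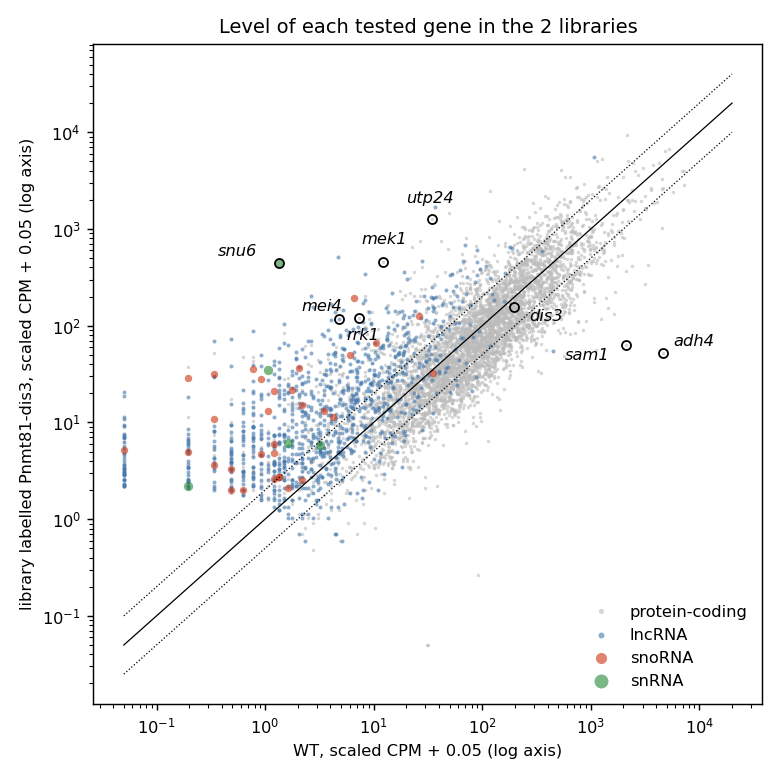
Scaled CPM plus 0.05 of each compared gene in the library labelled Pnmt81-dis3 (vertical, log axis) and in WT (horizontal, log axis), with dotted lines at 2-fold. Non-coding genes lie mostly above the upper line at low WT levels, dis3 lies near the diagonal, and adh4 and sam1 lie far below it.

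Single snRNA and snoRNA genes are given with their counts, since most were at low counts in WT. The U6 snRNA gene snu6 had 4108 counts in the library labelled Pnmt81-dis3 and 9 counts in WT, a log2 ratio of 8.35 (95% counting interval 7.49 to 9.55). Its count was 3347 in the library labelled Pnmt81-dhp1 Pnmt81-dis3 and 19 in the one labelled Pnmt81-dhp1. U6 pairs with U4 and forms the catalytic centre of the spliceosome. Its fission yeast gene holds an intron of 50 bases, of the kind found in mRNA genes. The sequence is shown because this gene had the largest log2 ratio of any snRNA or snoRNA gene. It is printed from the RefSeq genome ASM294v3 at I:2562276-2562419, - strand, with the exons in capitals. The counted gene of the table runs from 2562085 to 2562559 and so also takes in flanking bases.
snu6: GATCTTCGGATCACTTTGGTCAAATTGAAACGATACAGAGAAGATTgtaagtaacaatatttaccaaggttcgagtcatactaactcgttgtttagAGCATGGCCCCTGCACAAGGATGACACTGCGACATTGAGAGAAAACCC
The other snRNAs were counted less. The U4 gene snu4 had 325 counts against 7 counts in WT, snu2 had 20 counts against 1 count in WT, and snu1 had 56 counts against 11 counts in WT. In the library labelled Pnmt81-dhp1 snu4 had 187 counts, snu2 had 55 counts and snu1 had 1 count. The snu1 interval, from 0.98 to 3.01, reached just inside 2-fold, and snu5 had 0 counts in both libraries.

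Many of the snoRNAs guide modification or cleavage of ribosomal RNA. The 28 snoRNA genes past 2-fold ranged in log2 ratio from 1.02 to 7.12. The interval lay wholly past 2-fold for 21 of them. The largest was snoR69b (chromosome I, 4154912 to 4155002), with 266 counts in the library labelled Pnmt81-dis3, 298 in Pnmt81-dhp1 Pnmt81-dis3, 0 in Pnmt81-dhp1 and 1 in WT. The library labelled Pnmt81-dhp1 was not low at every one of these genes. In CPM scaled over the 4 libraries, sno52 stood at 17.4 there, 13.7 in Pnmt81-dis3 and 1.06 in WT, and snr79 at 15.1, 206 and 6.98. snr79 had 1815 counts against 46 counts in WT, a log2 ratio of 4.87 (4.46 to 5.34). Both genes of the U3 snoRNA, which guides early cleavage of the ribosomal RNA precursor, were higher: snu3 had 100 counts against 2 counts in WT, and snu32 had 328 counts against 5 counts in WT. The others past 2-fold were SPNCRNA.814, SPNCRNA.1650, SPNCRNA.1436, SPNCRNA.1483, SPNCRNA.723, SPNCRNA.901, snR42, snR92, snR93, snR94, sno12, sno20, sno52, snoR02, snoR38, snoR39a, snoR54b, snoR58, snoR61, snoR69 and snoU14, besides snR33, snR36 and snoR39b. snR101 had 300 counts against 247 counts in WT, a log2 ratio of -0.14 (-0.38 to 0.11). The 3 smallest, snR33, snR36 and snoR39b, had intervals that reached below 0. Counts of a snoRNA gene can hold its precursor as well as the mature RNA, which these libraries do not separate. Without genes that overlap another gene on the same strand, 18 snoRNA genes were past 2-fold.

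Other stable non-coding RNAs differed among themselves. The RNase P RNA rrk1, which cuts the 5′ leader of tRNA precursors, had 1101 counts against 33 counts in WT, a log2 ratio of 4.62 (4.14 to 5.19). The signal recognition particle RNA srp7 had 1171 counts against 349 counts in WT, a log2 ratio of 1.33 (1.16 to 1.51). The telomerase RNA ter1 had 23 counts against 20 counts in WT, and its interval from -1.14 to 0.72 spanned no difference. Of the 19 tRNA genes compared, 11 had 0 counts in WT. Near-identical tRNA and rRNA copies share fragments, so single copies of them are uncertain.

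Higher lncRNA counts were not confined to genes that WT hardly expressed. Of 308 lncRNA genes with 10 or fewer counts in WT, 283 were higher, but the minimum of 20 counts favours higher genes there. Of 186 lncRNA genes above 100 counts in WT, where that minimum plays no part, 97 were higher and 16 lower. The 39 compared lncRNA genes at 0 counts in WT included SPNCRNA.665, with 190 counts in the library labelled Pnmt81-dis3, and SPNCRNA.292, with 175 counts. Against a floor of 3 counts in WT, SPNCRNA.665 was at least 47.4-fold higher and SPNCRNA.292 at least 43.7-fold higher. SPNCRNA.1219 had 641 counts against 2 counts in WT and SPNCRNA.572 had 673 counts against 3 counts in WT. The library labelled Pnmt81-dhp1 held 1581 counts of SPNCRNA.1219 and 49 counts of SPNCRNA.572. SPNCRNA.822, SPNCRNA.1289, SPNCRNA.318 and SPNCRNA.201 had 105, 100, 87 and 84 counts and were at 0 in WT.

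The 42 lower lncRNA genes had smaller ratios. The lowest named one was SPNCRNA.1115 (chromosome III, 170340 to 174289), which RefSeq describes as a possible alternative UTR. It had 510 counts in the library labelled Pnmt81-dis3 and 3118 counts in WT, a log2 ratio of -3.03 (-3.17 to -2.89). SPNCRNA.1015 had 197 counts against 560 counts in WT. The other 6 of the 8 lowest, SPNCRNA.1079, SPNCRNA.1302, SPNCRNA.1568, SPNCRNA.685, SPNCRNA.1376 and SPNCRNA.826, had 15 to 32 counts in the library labelled Pnmt81-dis3 and 49 to 125 counts in WT.

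The lncRNA genes were then split by their position relative to protein-coding genes. Of 759 lncRNA genes that lie antisense to a protein-coding gene 509 were higher (67.1%), and of 262 without one 181 were higher (69.1%). The protein-coding genes opposite a higher lncRNA had a median log2 ratio of -0.08 over 496 genes, and those opposite an lncRNA that was not higher had 0.28 over 238 genes. Both lay above the median of -0.24 over all protein-coding genes. Opposite a higher lncRNA 16.7% were higher and 20.8% lower, against 13.6% and 23.8% of all protein-coding genes. Opposite an lncRNA that was not higher, 27.3% were higher and 15.5% lower. Fragments were counted by strand, so the members of a pair were counted apart. The 185 lncRNA genes that overlap a protein-coding gene on the same strand had a median of 1.83, and the 836 that do not had 1.70. Fragments of the overlap itself were left out by the counting.

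Among the 38 gene lists the highest medians were those of 2 meiotic lists. Of 13 genes listed as Mmi1 targets 12 were higher and 0 lower, with a median log2 ratio of 2.85. Over all protein-coding genes 13.6% were higher and 23.8% lower, with a median of -0.24. These shares are the background of every list of protein-coding genes below. In a bulk culture, more RNA per cell and more cells that express a gene cannot be told apart. mei4, the forkhead transcription factor of middle meiosis, had 1117 counts in the library labelled Pnmt81-dis3, 1177 in Pnmt81-dhp1 Pnmt81-dis3, 87 in Pnmt81-dhp1 and 51 in WT. Its log2 ratio over WT was 4.02 (3.63 to 4.47). num1, also known as mcp5, which anchors dynein at the cortex in meiotic prophase, had 6919 counts against 184 counts in WT. ssm4, a dynactin subunit, had 5795 counts against 339 counts in WT. rec10, a component of the linear elements on meiotic chromosomes, had 4936 counts against 592 counts in WT, and rec8, the meiotic cohesin subunit, had 185 counts against 24 counts in WT. mug10, mug45, mug9, crs1, mug8 and spo5 had log2 ratios between 1.63 and 3.83. The meiRNA gene sme2, whose non-coding RNA holds Mmi1 in meiosis, had 34 counts against 8 counts in WT. mug4 was the member not past 2-fold, with 149 counts against 74 counts in WT and a log2 ratio of 0.59 (0.18 to 1.01).

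Of 24 genes of meiotic recombination and chromosome movement 20 were higher and 0 lower, with a median of 2.34. 4 of them, num1, ssm4, rec8 and rec10, are also in the first list. mek1, a meiotic checkpoint kinase, had 4226 counts against 85 counts in WT, a log2 ratio of 5.21 (4.91 to 5.55). mcp6, which is needed for the horsetail movement of the nucleus, had 1868 counts against 57 counts in WT. rec25 had 1475 counts against 92 counts in WT, bqt1, which gathers telomeres at the spindle pole body, 1076 counts against 63 counts in WT, and rec11 2032 counts against 149 counts in WT. rec12, the enzyme that makes the DNA breaks, had 83 counts against 72 counts in WT, a log2 ratio of -0.21. rec14, which also serves the Ski complex, had 97 counts against 137 counts in WT. rec6 and rec24 were within 2-fold as well.

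Of 83 genes named mug, for meiotic upregulation, 25 were higher (30.1%) and 12 lower (14.5%), with a median of 0.23. Over all protein-coding genes these shares were 13.6% and 23.8%. Of 18 named meu, for meiotic expression, 11 were higher and 2 lower, with a median of 1.64 and with meu1 at 7479 counts against 498 counts in WT. Of 18 sporulation genes 6 were higher (33.3%) and 4 lower (22.2%), the lower share being near that over all protein-coding genes. Among the lower was mes1, with 23 counts against 108 counts in WT. Of 13 genes of mating and of nitrogen starvation 4 were higher (30.8%) and 5 lower (38.5%). fus1, a formin of cell fusion, had 3744 counts against 194 counts in WT, and mei3, the inhibitor of the Pat1 kinase, had 51 counts against 2 counts in WT. ste11, the transcription factor that starts the sexual programme, had 300 counts against 250 counts in WT, a log2 ratio of -0.15. mei2, which brings about the entry into meiosis, had 330 counts against 959 counts in WT.

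The core letters of the Mmi1 site were then counted. TNAAAC, with any base for N, was searched on the coding strand of the RefSeq coding sequences, and overlapping matches were counted. In each gene the 100-base stretch with the most matches was taken. All 12 protein-coding Mmi1 targets held 3 or more matches in such a stretch, against 135 of 4965 protein-coding genes (2.72%). Since these genes are known for the site, this describes the list and not the libraries. Across all protein-coding genes the log2 ratio also differed with the matches. Its median was -0.49 over 1069 genes with 0 matches, -0.27 over 2680 genes with 1, -0.05 over 1081 genes with 2, 0.46 over 126 genes with 3, and 3.84 over 9 genes with 4. Of the 9, 7 were higher and 0 lower. The listed genes were left in: 4 Mmi1 targets are among the 9, as are 4 genes of the meiotic recombination list, with num1 in both. The medians at 3 and 4 matches are thus not separate from the lists. Longer coding sequences hold more matches and also had higher ratios. The match holds more A and T than G and C, and genes of low GC content had higher ratios too. The share of each in this pattern was not tested, and a match is not a site.

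The stretches below show the spacing of the matches in 5 of the 9 genes that hold 4 of them. These 5 were picked from the 2 meiotic lists and were all higher, so they do not stand for the 9. They are coding sequence of the RefSeq genome ASM294v3, 100 bases each, with the matches in capitals. The regions are II:1473875-1473974, + strand, for mei4, II:899614-899713, + strand, for num1, I:5232458-5232557, + strand, for mek1, II:429559-429658, - strand, for mcp6 and I:1753551-1753650, - strand, for rec25.
mei4: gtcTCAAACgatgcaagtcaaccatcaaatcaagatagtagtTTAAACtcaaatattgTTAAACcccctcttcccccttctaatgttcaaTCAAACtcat
num1: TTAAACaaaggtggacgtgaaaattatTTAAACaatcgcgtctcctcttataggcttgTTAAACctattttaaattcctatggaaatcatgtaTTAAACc
mek1: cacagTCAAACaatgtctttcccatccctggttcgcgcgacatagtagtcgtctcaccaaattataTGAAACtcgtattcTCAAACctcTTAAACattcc
mcp6: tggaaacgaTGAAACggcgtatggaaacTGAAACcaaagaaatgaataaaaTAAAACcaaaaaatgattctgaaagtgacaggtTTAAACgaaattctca
rec25: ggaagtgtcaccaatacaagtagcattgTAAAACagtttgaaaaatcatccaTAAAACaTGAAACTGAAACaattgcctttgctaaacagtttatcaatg
In rec25, 2 of the matches adjoin. In mei4 and num1 the matches are spread over most of the stretch.

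Of 13 exosome genes 3 were higher and 0 lower, with a median of 0.27, dis3 included. The share higher, 23.1%, was near the 23.8% over all compared genes, and 13.6% of protein-coding genes were higher and 23.8% lower. rrp6 had 16299 counts in the library labelled Pnmt81-dis3 and 4240 counts in WT, a log2 ratio of 1.53 (1.48 to 1.57). cti1 had 719 counts against 186 counts in WT and rrp46, a core subunit, 6016 counts against 1692 counts in WT. The subunits rrp4, rrp40, rrp41, rrp42, rrp43, rrp45, csl4 and mtr3, had log2 ratios from -0.61 to 0.64. Of 16 cofactor genes 3 were higher (18.8%) and 2 lower (12.5%), against 13.6% higher and 23.8% lower over all protein-coding genes. Shares over so few genes are coarse. The higher ones were cid14, the poly(A) polymerase of TRAMP, with 4595 counts against 1423 counts in WT, its helicase mtr4, with 6994 counts against 2371 counts in WT, and mmi1, with 3723 counts against 1261 counts in WT. The lower ones were erh1, which encodes the partner protein of Mmi1, with 562 counts against 1291 counts in WT, and pab2, a nuclear poly(A)-binding protein, with 518 counts against 841 counts in WT.

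The enzymes of the opposite, 5′ to 3′ direction were mixed. The nuclear exonuclease dhp1 had 3507 counts against 1231 counts in WT, a log2 ratio of 1.09 (1.00 to 1.19). The pyrophosphohydrolase din1, which binds Dhp1, had 119 counts against 389 counts in WT. The cytoplasmic exonuclease exo2 had a log2 ratio of 0.38 (0.33 to 0.43). Of 20 genes of RNA interference and heterochromatin 8 were higher and 1 lower, with a median of 0.59. chp1, the chromodomain protein of the RITS complex, had 6380 counts against 974 counts in WT, and the Dicer gene dcr1 had 2508 counts against 583 counts in WT. clr2 was the lower one, with 149 counts against 243 counts in WT. All 7 compared Tf2 retrotransposon genes were higher, with a median of 2.17, but their copies are nearly identical and single values are uncertain.

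Ribosome production showed opposite directions in its parts. Of 82 genes of ribosome biogenesis 29 were higher and 1 lower, with a median of 0.73. utp3, of the small subunit processome, had 86647 counts in the library labelled Pnmt81-dis3 and 15088 counts in WT. rrp8, an rRNA methyltransferase, had 31722 counts against 4466 counts in WT, and rok1, a helicase, 3676 counts against 481 counts in WT. The 1 lower gene was gar1, a subunit of the box H/ACA particles. Of 141 cytosolic ribosomal protein genes, by contrast, 3 were higher and 76 lower, with a median of -1.08. rpp0, of the ribosomal stalk, had 402 counts against 1574 counts in WT and rpl35A02 had 104 counts against 570 counts in WT. The 3 higher ones were rpl29, with 3052 counts against 457 counts in WT, rps2202, with 911 counts against 136 counts in WT, and rpl3002, with 556 counts against 112 counts in WT. When each gene was set against protein-coding genes of like GC content and coding length, an alternative chosen after seeing the data, the median of the ribosomal protein genes was -0.24 and that of ribosome biogenesis 0.87. This sets the median of each bin of like genes to 0, so it also removes the median of -0.24 over all protein-coding genes. The bins, of at least 198 genes, hold the list genes themselves, which can pull the bin medians towards their own values.

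**Figure D3:**
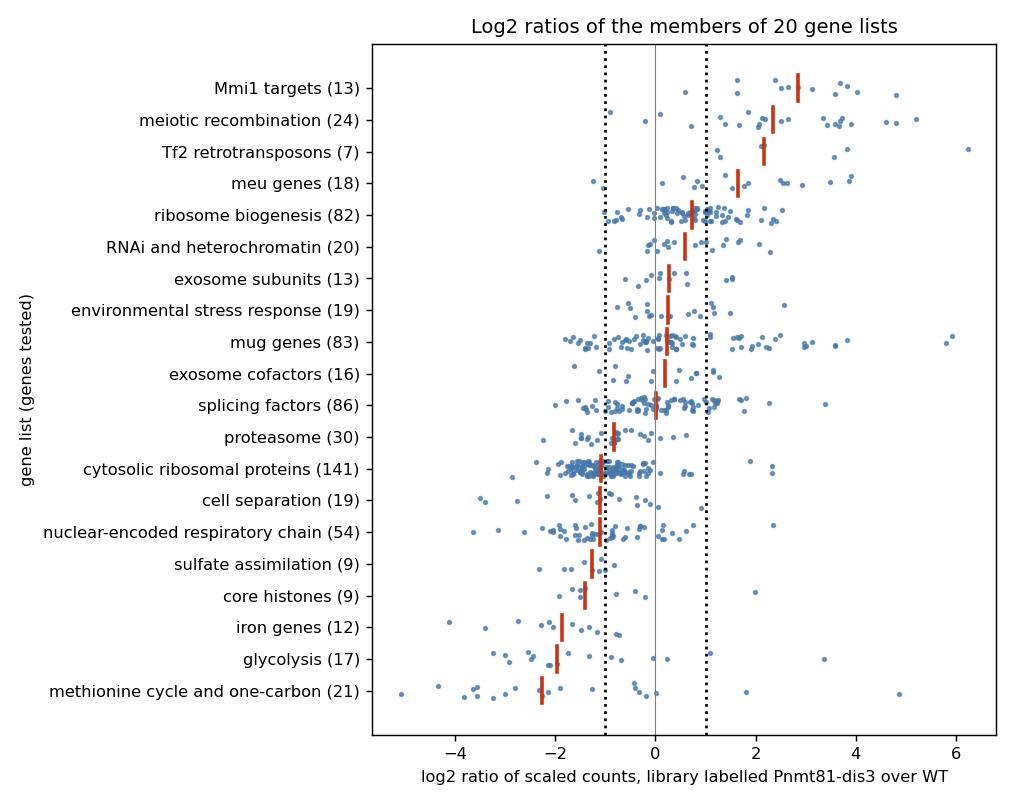
Log2 ratios in the library labelled Pnmt81-dis3 over WT of the members of 20 gene lists, ordered by median. Each dot is a gene, red bars mark medians and dotted lines mark 2-fold. Of the 20 lists shown, Mmi1 targets (median 2.85) are at the top. The methionine cycle with one-carbon metabolism (-2.27), a list gathered after its values were seen, is at the bottom. The 3 uracil-responsive genes (median -2.88) are not shown.

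Of all the lists, those with the lowest medians include several of metabolism. Genes of the methionine cycle and one-carbon units were gathered into a list after their values were seen, so their count is a description only: 14 of 21 were lower and 2 higher, with a median of -2.27. sam1, which makes S-adenosylmethionine, had 581 counts in the library labelled Pnmt81-dis3, 337 in Pnmt81-dhp1 Pnmt81-dis3, 9750 in Pnmt81-dhp1 and 14692 in WT. Its log2 ratio over WT was -5.08 (-5.20 to -4.96). The enzyme that acts after methyl transfer, adenosylhomocysteinase SPBC8D2.18c, had 1220 counts against 11386 counts in WT, and the methionine synthase met26 had 2511 counts against 22182 counts in WT. The glycine cleavage genes gcv1, gcv2 and gcv3 had log2 ratios of -2.81, -1.90 and -3.56. Of 9 genes of sulfate assimilation, a list also chosen after seeing the data, 7 were lower and 0 higher, led by the sulfate transporter sul2, with 202 counts against 764 counts in WT.

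The members of 3 pairs of paralogs, chosen after their values were seen, differed in opposite directions. ade9 and thf1 both encode a trifunctional C1-tetrahydrofolate synthase, and their coding sequences are 62.3% identical. ade9 had 13497 counts in the library labelled Pnmt81-dis3 and 345 counts in WT, a log2 ratio of 4.87 (4.72 to 5.03). thf1 had 519 counts against 7803 counts in WT, a log2 ratio of -4.33 (-4.46 to -4.20). The enolase genes eno102 and eno101 are 63.9% identical. eno102 had 306 counts against 22 counts in WT, while eno101 had 1432 counts against 10119 counts in WT. The methionine synthase reductase genes SPAC1783.01 and SPBC12C2.03c had 3622 counts against 777 counts in WT and 141 counts against 531 counts in WT.

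Of 17 glycolysis genes 11 were lower and 2 higher, with a median of -1.96, and the median was -1.17 against genes of like GC content and length. fba1, the aldolase, had 9502 counts against 31311 counts in WT, tdh1, a glyceraldehyde-3-phosphate dehydrogenase, 2053 counts against 11655 counts in WT, pgk1 1049 counts against 6277 counts in WT, and the pyruvate kinase pyk1 3382 counts against 14710 counts in WT. tdh1 and its copy gpd3 are 93.0% identical and may share fragments. adh1, the main alcohol dehydrogenase of fermentation, had 4133 counts against 3171 counts in WT, a log2 ratio of -0.04 (-0.10 to 0.03). The hexose transporter ght5 had 890 counts against 3865 counts in WT.

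Of 10 zinc and copper genes 5 were lower and 1 higher, with a median of -0.82, and the median was -0.18 against genes of like GC content and length. adh4 (SPAC5H10.06c, chromosome I, 156430 to 158307), an alcohol dehydrogenase that is repressed when zinc is ample, had 485 counts in the library labelled Pnmt81-dis3, 348 in Pnmt81-dhp1 Pnmt81-dis3, 949 in Pnmt81-dhp1 and 31905 in WT. Its log2 ratio over WT was -6.46 (-6.59 to -6.33). Among the 4 libraries grown with thiamine, WT alone was high. The zinc transporter zrt1 had 1101 counts against 8608 counts in WT. Of 12 iron genes 10 were lower and 0 higher, with a median of -1.85. The high-affinity iron permease fip1 had 60 counts against 784 counts in WT, its partner oxidase fio1 1050 counts against 5283 counts in WT, and the siderophore transporter str1 126 counts against 1008 counts in WT. The copper transporter ctr4 had 183 counts against 43 counts in WT. Of 54 nuclear genes named for the respiratory chain and the ATP synthase, 28 were lower and 1 higher, with a median of -1.11. The 11 compared genes of the mitochondrial genome had a median of 0.68.

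Of 19 genes of septation and cell separation 10 were lower and 0 higher. The largest differences were those of adg1, with 57 counts against 489 counts in WT, and of the septum glucanase eng1, with 303 counts against 2419 counts in WT. The tubulin genes nda2, nda3 and atb2 had log2 ratios of -2.07, -2.08 and -1.65. Of 9 core histone genes 5 were lower, and hhf2 alone was higher, with 4209 counts against 791 counts in WT. Histone mRNAs are made in S phase, and the share of cells in each phase was not measured. Of 30 proteasome genes 11 were lower and 0 higher. Of 18 chaperone genes 5 were lower (27.8%), near the 23.8% of all protein-coding genes, among them hsp90, with 22317 counts against 39663 counts in WT, and hsp104 was higher, with 5300 counts against 1781 counts in WT. Of 19 genes of the environmental stress response 5 were higher and 0 lower, led by the glutathione transferase gst2, with 31822 counts against 4023 counts in WT. The small heat shock gene hsp16 had 948 counts against 659 counts in WT, a log2 ratio of 0.11. Against protein-coding genes of like GC content and length the medians were -0.31 for the proteasome, -0.63 for the histones, -0.53 for the respiratory chain and -1.23 for the iron genes, against -0.82, -1.40, -1.11 and -1.85 as reported. That of the stress response was 0.93, against 0.26 as reported. These medians are relative to bin medians set to 0, and the reported ones lie beside a median of -0.24 over all protein-coding genes. The share of GC content or length in the shifts was not tested.

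The 12 protein-coding genes with the largest ratios included 3 at 0 counts in WT. These were SPBC1921.04c with 82 counts, SPAC13G6.13 with 63 counts and SPAPB17E12.09 with 58 counts, which were at least 20.5-fold, 15.7-fold and 14.5-fold higher against a floor of 3 counts. The adducin SPBC1289.14 had 347 counts against 1 count in WT, a log2 ratio of 7.50 (5.53 to 13.33), and the flavin oxidoreductase SPBC23G7.10c had 489 counts against 2 counts in WT. mug137, a BAR adaptor protein, had 439 counts against 5 counts in WT, mug95 had 778 counts against 10 counts in WT, and fzr3, a meiotic activator of the anaphase-promoting complex, had 105 counts against 1 count in WT. Counts of mug137, mug95 and fzr3 in the library labelled Pnmt81-dhp1 were 85, 277 and 156. SPAC1687.08, SPCC757.02c and SPAC29E6.07 had 438, 398 and 1504 counts against 4, 5 and 27 counts in WT. The best counted of them was utp24 (chromosome II, 1457291 to 1460149), an endonuclease of rRNA processing, with 11849 counts against 239 counts in WT and a log2 ratio of 5.21 (5.03 to 5.40).

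The lowest protein-coding genes opened with 3 copies of 1 gene. SPBC1348.06c and SPBPB2B2.15 each had 0 counts in the library labelled Pnmt81-dis3, against 218 and 217 counts in WT, and SPAC977.05c had 2 counts against 635 counts in WT. The coding sequence of SPBPB2B2.15 is identical to that of SPBC1348.06c and that of SPAC977.05c nearly so, and the counts cannot be divided among them with certainty. SPBC1348.06c had at most 8 counts in any other library of the series, so WT grown with thiamine stood apart. After adh4, sam1 and thf1 came fip1, urg2, with 20 counts against 266 counts in WT, and cho1, a phospholipid methyltransferase, with 19 counts against 205 counts in WT. SPAC3G6.05 and cox8 had 15 and 7 counts against 148 and 71 counts in WT, and SPBC8D2.18c was given above.

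Protein-coding genes were divided into 4 equal groups by their mean level in the CTL libraries, in FPKM, which corrects counts for gene length and library size. The median log2 ratio was 0.42, -0.13, -0.26 and -0.96, low to high. The ratio was thus lower where the level in other cultures was higher. In the lowest group 30.1% of genes were higher and 9.81% lower, and in the highest 3.54% were higher and 48.3% lower. The ratio also differed with coding length, with medians of -0.45 in the shortest and 0.06 in the longest group. By GC content of the coding sequence the medians were 0.13 in the lowest and -0.75 in the highest group. Exon number made a smaller difference, with medians of -0.15 over 2506 genes of 1 exon and -0.34 over 341 genes of 5 or more exons. Centring each gene within 25 bins of GC content and coding length, an alternative chosen after seeing the data, gave 860 higher and 692 lower protein-coding genes, against 677 and 1181 as reported. Centring also sets each bin median to 0, so the removal of the median of -0.24 over all protein-coding genes is part of this change. Whether GC content, length or level lies behind the lower ratios of ribosomal protein and glycolysis genes was not tested.

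**Figure D4:**
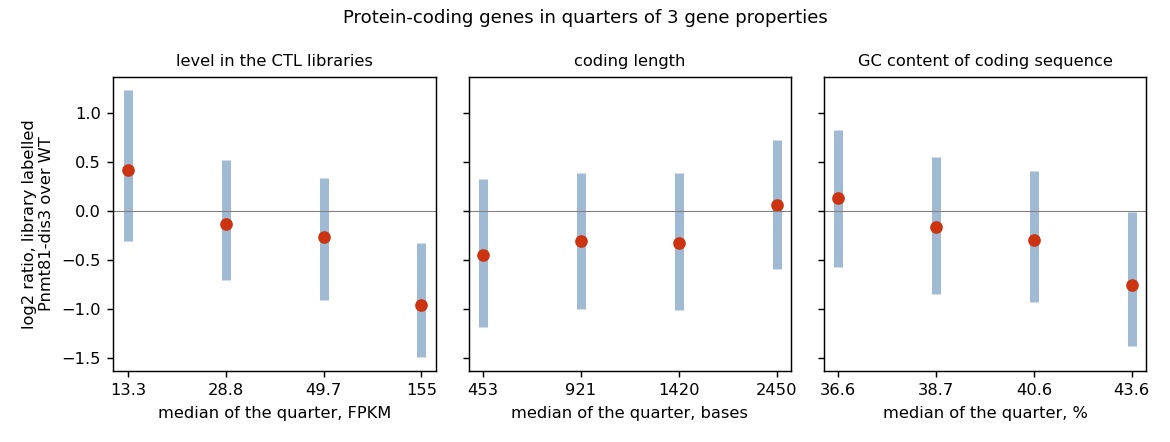
Protein-coding genes in 4 equal groups by the level in the CTL libraries, by coding length and by GC content, with the log2 ratio of the library labelled Pnmt81-dis3 over WT on the vertical axis. Red dots are medians and bars span the interquartile range. The median is -0.96 in the group of highest level and -0.75 in that of highest GC content.

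The transporter genes SPBC530.02 and mfs2, which the Pac1 study examined, differed from each other. SPBC530.02 had 1325 counts in the library labelled Pnmt81-dis3, 829 in Pnmt81-dhp1 Pnmt81-dis3, 406 in Pnmt81-dhp1 and 62 in WT. Its log2 ratio over WT was 3.99 (3.63 to 4.39). Its paralog mfs2, 66.6% identical in coding sequence, had 407 counts in the library labelled Pnmt81-dis3, 721 in Pnmt81-dhp1 Pnmt81-dis3, 321 in Pnmt81-dhp1 and 259 in WT, with a log2 ratio over WT of 0.23 (0.01 to 0.46). pac1 itself had 156 counts against 200 counts in WT, a log2 ratio of -0.77 (-1.09 to -0.47). Counts over whole genes do not show which side of a Pac1 cleavage site the fragments came from.

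**Figure D5:**
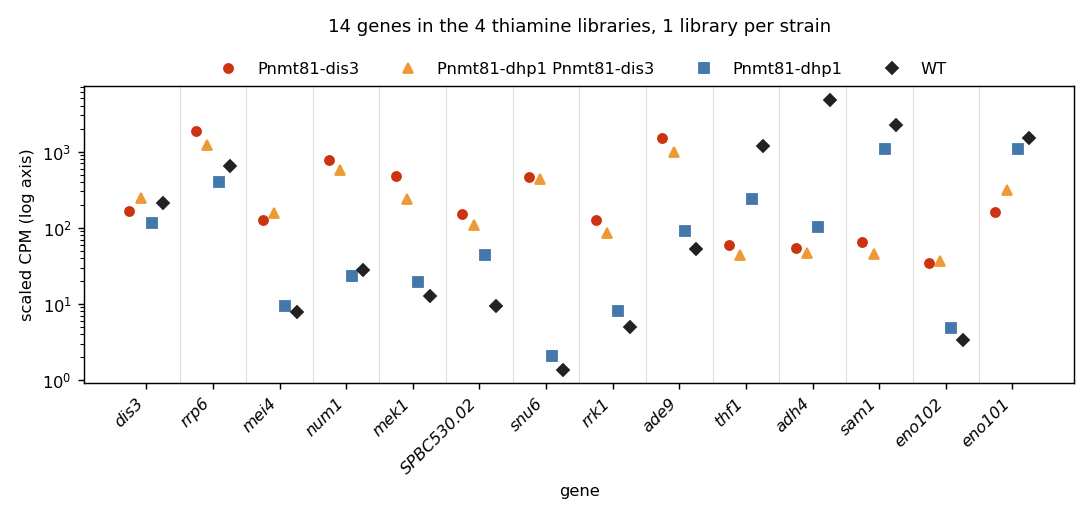
Scaled CPM (log axis) of 14 genes in the 4 libraries grown with thiamine, 1 library per strain, scaled together. The libraries labelled Pnmt81-dis3 and Pnmt81-dhp1 Pnmt81-dis3 lie near each other for most genes shown, mei4, snu6 and ade9 lie above WT in them and adh4, sam1 and thf1 below it, and dis3 lies between 114 and 248 scaled CPM.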

How the data were processed

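Raw fragment counts for each gene, whole numbers without normalization, were deposited by the authors as 1 table. According to the study's methods and the labels, reads of libraries depleted of ribosomal RNA (TruSeq Stranded after RiboZero) were trimmed with Trimmomatic, mapped with HISAT2 to ASM294v2 and counted by strand with featureCounts, so that a fragment on more than 1 gene was left out. The gene lengths of the table, as deposited, were used for FPKM only. IDs were matched to RefSeq locus tags (6888 of 7049), which gave symbols and classes. Coordinates are those of ASM294v2, and sequences those of RefSeq ASM294v3.

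Ratios used TMM factors of edgeR 4.0.16 (R 4.3.3) over both libraries, a pseudocount of 0.5, at least 20 counts in sum and 95% Clopper-Pearson intervals (scipy). A floor of 3 counts is 0.317 CPM for the library labelled Pnmt81-dis3, against 0.439 CPM for WT. The calculation was tested on simulated data. Coding sequences were aligned globally with Biopython 1.88.

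Genes named are dis3 and the exosome genes, the 12 protein-coding and 8 lncRNA genes highest and lowest among those with at least 50 counts and an interval wholly past 2-fold (wtf, Tf2, rRNA and tRNA families left out), snoRNA and snRNA genes past 2-fold, up to 6 members of each list by size of change plus those whose role the text needs, mfs2 and SPBC530.02. The lists and the genes were chosen with earlier results of these data known, and 3 of the 38 lists after the values were seen. In the mating-type lists mam2 and map3 were exchanged after the values were seen, since mam2 encodes the receptor of M cells and map3 that of P cells. Lists made by name pattern held protein-coding genes only, and hrs1 was taken out of the recombination list because the symbol here belongs to another gene.

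Alternatives were other scalings (DESeq2 1.42.0 size factors, library totals, TMM over protein-coding genes or over the 4 thiamine libraries), count minimums of 1 and 100, a pseudocount of 5, thresholds of 1.5-fold and 4-fold, and leaving out genes that overlap on the same strand.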

Additional observations from a re-analysis of the deposited data

How the results depend on the processing

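No paired analysis was possible because each strain has 1 library, so no library could be left out and the spread between cultures is unknown. Of 68 recounts of genes past 2-fold under the alternatives, 56 lay within 1.5 times the reported count. The scaling over the 4 thiamine libraries left every log2 ratio unmoved. Its recounts are among the 56 and repeated the reported counts, so they say nothing about stability. The recounts outside that range came mainly from the threshold itself. At 4-fold, 748 genes were higher and 202 lower, 454 lncRNA genes were higher, and 221 protein-coding genes were higher and 193 lower. At 1.5-fold, 1973 genes were lower, and 1126 protein-coding genes were higher and 1894 lower. With a minimum of 100 counts, which tests fewer genes, 420 lncRNA and 16 snoRNA genes were higher. Without genes overlapping on the same strand 18 snoRNA genes were higher, and centring within bins of GC content and coding length left 692 protein-coding genes lower. With TMM factors from protein-coding genes only, the median log2 ratio of protein-coding genes was -0.02 and that of dis3 -0.12, and the split of all genes became 1714 higher and 895 lower. The medians of 4 lists changed sign between scalings, all of them within 0.26 of 0: 5′ to 3′ decay, thiamine genes, splicing factors, and RNA polymerase II with termination. With the centring by GC content and length, chosen after seeing the data, the median of the chaperones was 0.33, against -0.35 as reported. Of 1325 values of 265 named genes, 0 reversed the direction of a gene past 2-fold. The other scalings shifted every log2 ratio by only -0.05 to 0.23, and a larger pseudocount only shrinks it. A reversal was therefore not possible, and the 0 says nothing about how stable these genes are. Genes with few counts in WT have wide intervals, and depth limits them first.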

Other observations

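Lists not described above gave these values for the library labelled Pnmt81-dis3 over WT, beside 13.6% higher and 23.8% lower over all protein-coding genes. Of 86 splicing factor genes 16 were higher (18.6%) and 11 lower (12.8%), with usp103, which encodes a U1 particle protein, at 1752 counts against 126 counts in WT. Of 29 genes of RNA polymerase II and of termination 2 were higher (6.90%) and 5 lower (17.2%), among the lower swd22, with 34 counts against 107 counts in WT. Of 9 genes of purine synthesis, a list chosen after seeing the data, 4 were lower and 0 higher, with ade10 at 756 counts against 4443 counts in WT. Of 9 thiamine genes 2 were higher and 2 lower, with thi4 at 909 counts against 276 counts in WT. Of 6 phosphate genes 1 was higher, the non-coding prt2, with 1311 counts against 167 counts in WT, and 2 were lower, among them the acid phosphatase gene pho1, with 2589 counts against 4376 counts in WT. Of 16 wtf genes, whose copies are alike, 3 were higher (18.8%) and 2 lower (12.5%). The 3 uracil-responsive genes urg1, urg2 and urg3 were lower, with 32, 20 and 177 counts against 179, 266 and 524 counts in WT. Of 72 protein-coding genes within 100 kb of an end of chromosome I or II 22 were higher (30.6%) and 16 lower (22.2%), with a median of 0.22, against -0.24 over the other 4897.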
